A study of Rattus norvegicus with 8 samples.

Results

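A set of 10 genes of the early response to a stimulus was followed in rat Achilles tendon: Ier2, Ier3, Ier5 and Ier5l, the transcription factor genes Myc and Csrnp1, and the mRNA decay genes Zfp36, Zfp36l1, Zfp36l2 and Zc3h12a. They were taken by gene symbol from a table of 15590 genes, in which all 10 had a row. The samples were Achilles tendons of wild-type Sprague-Dawley (SD) rats, all males with an age of 8 to 10 weeks, and came from the right leg. The 4 libraries labelled 0 h p.r. (post-run) were taken immediately after 1 h on a treadmill (called after running), and the 4 libraries of naïve controls (NC, called at rest) came from rats that had not run. Per the methods, the controls were killed together with a group that rested for 12 h after running, and the airflow and mild electric stimulus that urged running were used on the treadmill, so that running, handling and the time of death cannot be told apart. The labels number the libraries 1 to 4 in each group without saying that each came from a separate animal, so p-values measure only the spread between these samples.

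Immediate-early genes are transcribed within minutes of a signal such as a growth factor, stress or stretch, without new protein synthesis, and their mRNAs are short-lived. Tristetraprolin, the product of Zfp36, and its relatives bind AU-rich elements of mRNAs and recruit the CCR4-NOT complex, which removes the poly(A) tail and starts decay. The ribonuclease Regnase-1, the product of Zc3h12a, cuts stem-loops in inflammatory mRNAs. Many of the mRNAs that these proteins act on encode cytokines, and decay genes are themselves induced by the same signals.

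Of the 10 genes, 7 were higher in 0 h p.r. with an adjusted p under 0.05 and a fold of at least 2 (limma, Benjamini-Hochberg over 13863 tested genes). These were Csrnp1, Zfp36, Myc, Ier3, Ier2, Zc3h12a and Ier5l. Among all tested genes, 1.8% were higher by the same rule and 2.7% changed in either direction. The set was chosen with earlier results of these data known, so this count is a description. The study itself lists Zfp36, Zc3h12a, Ier3 and Myc as differentially expressed in these samples. Ier5 was higher with an adjusted p under 0.05 but a fold of 1.78, as part of 8 genes with such a p against 3.49% of all tested genes. Zfp36l1 and Zfp36l2 did not pass the test. In 9 of the 10, the lowest library after running exceeded the highest one at rest, which held for 8.15% of all tested genes. The median log2 fold change was 1.51 over the 10 genes and -0.0014 over all tested genes. Levels are given in FPKM, reads per kilobase of gene after scaling for the depth of the library, and each log2 fold change was taken of FPKM + 0.5.

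The libraries held 11353941 to 17903265 reads in the listed genes, and the 10 genes had between 70 and 8684 reads each in a library. The mitochondrial genes took 22.6% of the reads in NC replicate 2 and 8.86% to 13.2% in the others. All 9 tendon markers were detected, with a summed FPKM of 3878 to 7738 at rest and 4244 to 7614 after running. Of the skeletal muscle markers, 8 of 10 had a row, and their sum was 4090.0 to 7899 in NC but reached 38271 after running in replicate 1 and was 1140.2 in replicate 4 of that group. The 8 adipocyte markers were all lower after running (3000 to 5969 against 1006 to 2197). The 8 bone and cartilage markers were all higher, with sums of 17.7 to 137 at rest and 136 to 527 after running. No marker of these lists was at 0 in all libraries, and the part of these tissues in the results was not tested. In bulk tissue, fewer cells of a type and less RNA per cell cannot be told apart. Of the 10 genes, the same 7 passed both thresholds without 0 h p.r. replicates 1 and 4, a choice made after seeing the muscle markers.

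**Figure D1:**
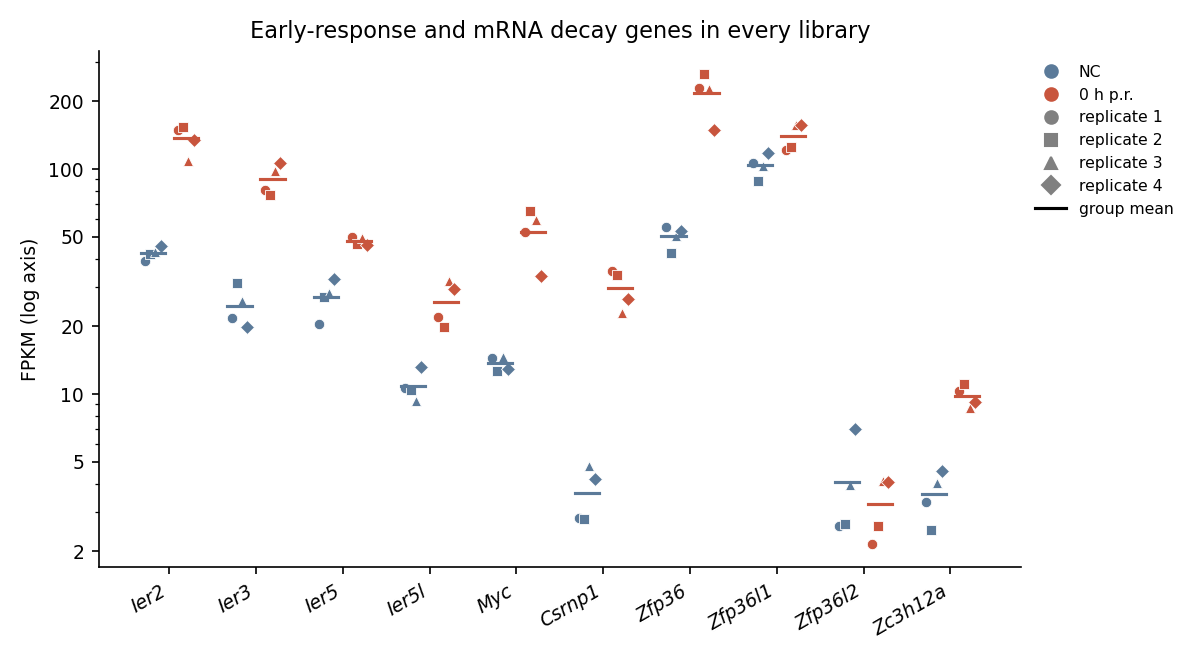
FPKM of each of the 10 genes (horizontal axis) in every library on a log axis; blue points are NC, red points 0 h p.r., the marker shape gives the replicate and the bars are group means. The red points lie above all blue points in 9 of the 10 genes, and for Zfp36l2 the groups overlap.

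The family of Ier2, Ier5 and Ier5l encodes nuclear proteins with a shared N-terminal domain that bind protein phosphatase 2A. The 250 bases before the start site are shown for these genes, so that relatives with unlike changes can be set side by side. They were taken from a RefSeq promoter table on GRCr8, in which 7 of the 10 genes were matched and Ier3, Myc and Csrnp1 were not. Capitals mark letters that matched 1 of 8 searched motifs on either strand: the CArG box bound by serum response factor, the NF-kB site, the CRE TGACGTCA, the AP-1 site TGANTCA, the E-box CACGTG, the TATA box TATAAA, the EGR site GCGGGGGCG and the heat shock pair GAANNTTC. A CArG box can hold the letters TATAAA, but no matches overlapped in the genes shown. A match is a description of the letters only.
Ier2, chr19:40399123-40399372, + strand: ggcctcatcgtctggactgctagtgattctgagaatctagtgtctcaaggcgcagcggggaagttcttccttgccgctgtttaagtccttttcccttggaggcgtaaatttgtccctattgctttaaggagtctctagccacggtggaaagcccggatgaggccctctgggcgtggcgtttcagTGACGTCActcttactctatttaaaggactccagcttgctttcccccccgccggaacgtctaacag
Ier5, chr13:69822543-69822792, - strand: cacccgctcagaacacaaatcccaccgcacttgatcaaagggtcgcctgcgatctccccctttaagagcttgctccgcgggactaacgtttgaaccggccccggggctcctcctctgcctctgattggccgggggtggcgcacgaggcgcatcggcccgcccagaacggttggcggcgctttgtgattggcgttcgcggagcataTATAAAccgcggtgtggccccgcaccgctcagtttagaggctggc
Ier5l, chr3:34143458-34143707, - strand: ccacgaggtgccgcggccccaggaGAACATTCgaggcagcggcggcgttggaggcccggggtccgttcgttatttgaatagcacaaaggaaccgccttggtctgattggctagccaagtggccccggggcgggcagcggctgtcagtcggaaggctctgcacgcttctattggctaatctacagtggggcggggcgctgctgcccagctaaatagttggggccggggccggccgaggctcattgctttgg
The CRE letters of Ier2 lay 66 to 59 bases before the start site, and 1.70% of the 27457 promoters of the table held them. Ier5 held TATAAA at 45 to 40 bases before the start site (13.1% of promoters), and Ier5l held the heat shock pair at 226 to 219 bases (7.02%).

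Ier2 (ENSRNOG00000054344) is induced by growth factors and acts in transcription. The deposited annotation lists its row as a pseudogene, one of 217 such rows. In NC replicates 1 to 4 its FPKM was 38.9, 41.9, 42.9 and 45.7, and in 0 h p.r. replicates 1 to 4 it was 149.9, 155, 109 and 135. The groups did not overlap, and the lowest library after running was 2.38 times the highest control. This gave a log2 fold change of 1.67 (SE 0.13, limma adjusted p 0.000532).

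Ier5 (ENSRNOG00000059406) is a regulator of the heat shock factor HSF1. Its FPKM was 20.4, 26.9, 28.3 and 32.5 at rest and 49.7, 46.4, 49.3 and 46.0 after running. After running its libraries lay within 1.08-fold of each other, the narrowest range among the 10 genes. The log2 fold change was 0.83 (SE 0.14, limma adjusted p 0.0141). Over 16 alternative fits its adjusted p ranged from 0.0133 to 0.0667, and it was 0.0513 without 0 h p.r. replicate 3. Ier5l (ENSRNOG00000024846), a close relative of Ier5, had an FPKM of 10.6, 10.5, 9.33 and 13.3 at rest and 22.1, 19.8, 31.9 and 29.4 after running. Its groups did not overlap, with a log2 fold change of 1.19 (SE 0.18, limma adjusted p 0.00797).

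Ier3 (ENSRNOG00000000827) shares the name of this family but not its sequence, and encodes a regulator of apoptosis and NF-kB signalling. Its FPKM was 21.8, 31.2, 25.8 and 19.9 at rest and 80.6, 76.6, 97.9 and 107 after running. Every library after running was at least 2.46 times the highest control. On the log2 scale Ier3 was higher by 1.86 (SE 0.17, limma adjusted p 0.000886).

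The summed FPKM of Ier2, Ier5 and Ier5l was 69.97 to 91.5 at rest and 190.1 to 222 after running. Ier2 made up at most 55.6% of it at rest and at least 57.3% in every library after running, while the share of Ier5 was 29.2% to 35.5% at rest and 21.0% to 25.9% after running. The log2 ratio of Ier2 to Ier5 was 0.66 ± 0.18 at rest and 1.496 ± 0.25 after running (SD, n = 4), a difference of 0.84 with no overlap between the groups. Its exact permutation p was 0.0286, the smallest that 70 assignments can give, and 0.0571 after adjustment over 6 paralogue pairs. The ratio of Ier2 to Ier5l differed by 0.48 (exact p 0.171, adjusted 0.171) and that of Ier5 to Ier5l by -0.36 (exact p 0.143, adjusted 0.171), with overlapping groups in both pairs.

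**Figure D2:**
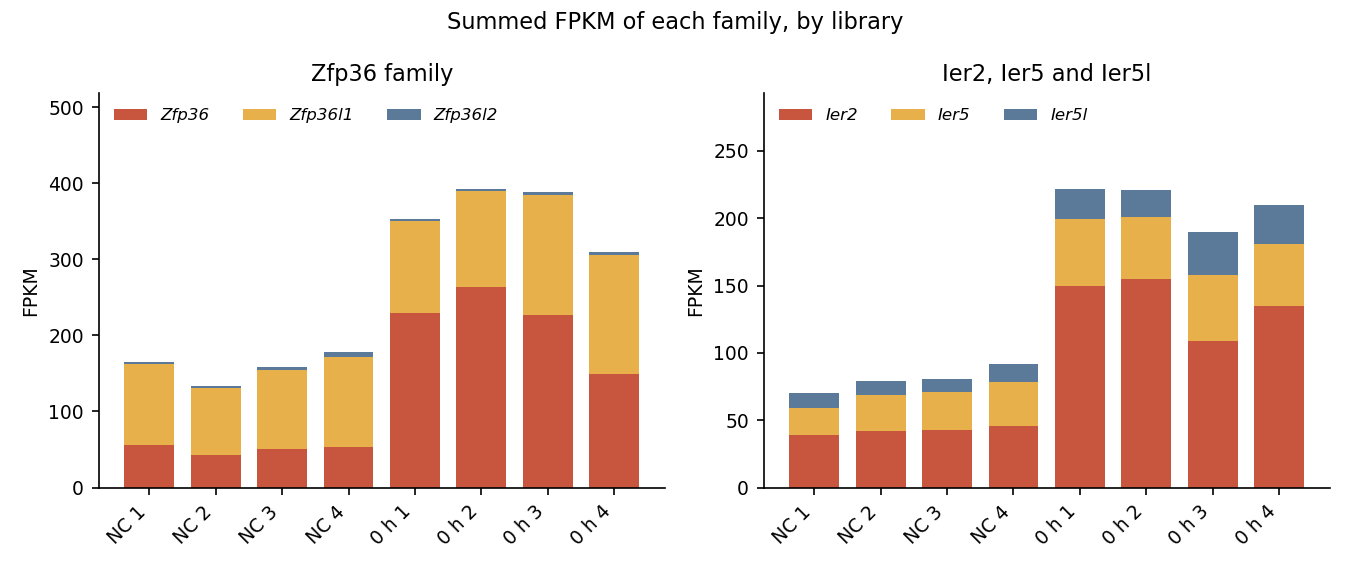
Summed FPKM (vertical axis from 0) of the Zfp36 family and of Ier2, Ier5 and Ier5l in every library, stacked by gene. All sums after running lie above those of NC, and Zfp36 takes 48.2% to 67.3% of its family's sum in 0 h p.r. against 29.8% to 33.7% in NC.

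Myc (ENSRNOG00000004500) encodes a transcription factor that pairs with Max and drives cell growth, ribosome biogenesis and metabolism. Its FPKM was 14.5, 12.7, 14.7 and 12.96 at rest and 52.3, 65.4, 59.7 and 33.6 after running. The controls lay within 1.16-fold of each other, whereas the libraries after running spread 1.95-fold, with replicate 4 the lowest. Replicate 4 was still 2.29 times the highest control. For Myc the log2 fold change came to 1.87 (SE 0.20, limma adjusted p 0.00181).

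Csrnp1 (ENSRNOG00000033433) encodes a cysteine- and serine-rich nuclear protein that acts in transcription. It had the largest change of the 10 genes and the 16th largest increase of the 13863 tested. Its FPKM was 2.80, 2.79, 4.82 and 4.19 at rest and 35.1, 34.0, 23.0 and 26.4 after running. The lowest library after running was 4.77 times the highest control. The log2 fold change was 2.87 (SE 0.21, limma adjusted p 0.000299).

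The Zfp36 family encodes zinc finger proteins that bind AU-rich mRNAs, and the log2 fold changes of its 3 genes ran from -0.23 to 2.08. Their 250 bases before the start site are shown for the same reason and from the same RefSeq table on GRCr8.
Zfp36, chr1:92799109-92799358, - strand: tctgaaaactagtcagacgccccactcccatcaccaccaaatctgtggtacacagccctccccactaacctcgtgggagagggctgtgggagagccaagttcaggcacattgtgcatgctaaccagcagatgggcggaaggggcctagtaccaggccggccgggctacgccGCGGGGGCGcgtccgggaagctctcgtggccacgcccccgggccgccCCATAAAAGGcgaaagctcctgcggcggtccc
Zfp36l1, chr6:104668691-104668940, - strand: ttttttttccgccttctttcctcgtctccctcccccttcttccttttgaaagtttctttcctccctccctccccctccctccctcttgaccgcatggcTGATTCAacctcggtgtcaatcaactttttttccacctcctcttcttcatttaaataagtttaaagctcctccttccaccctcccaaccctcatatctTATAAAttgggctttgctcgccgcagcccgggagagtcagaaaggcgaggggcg
Zfp36l2, chr6:16242372-16242621, + strand: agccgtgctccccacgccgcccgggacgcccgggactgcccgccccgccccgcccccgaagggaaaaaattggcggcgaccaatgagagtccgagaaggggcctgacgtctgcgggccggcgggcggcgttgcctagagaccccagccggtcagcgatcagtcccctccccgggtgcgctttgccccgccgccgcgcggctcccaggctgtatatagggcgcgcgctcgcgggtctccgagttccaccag
Zfp36 held a CArG box at 32 to 23 bases before the start site (1.501% of all promoters) and the EGR letters at 79 to 71 bases (2.49%). Zfp36l1 held the AP-1 letters at 152 to 146 bases (6.36%) and TATAAA at 54 to 49 bases. None of the 8 motifs was found in these bases of Zfp36l2.

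Zfp36 (ENSRNOG00000058388) had an FPKM of 55.6, 42.3, 50.3 and 53.3 at rest and 229, 264, 227 and 149 after running. As for Myc, replicate 4 was the lowest after running and replicate 2 the highest. All libraries after running were at least 2.68 times the highest control. On the log2 scale Zfp36 was higher by 2.08 (SE 0.19, limma adjusted p 0.000886).

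Zfp36l1 (ENSRNOG00000058646), which also acts in cell differentiation, was the most abundant of the 10 genes at rest. Its FPKM was 107, 88.7, 104 and 118 at rest and 121, 126, 157 and 156 after running. The groups did not overlap, and the lowest library after running was 1.03 times the highest control. The log2 fold change was 0.42 (95% interval 0.10 to 0.74) and the limma adjusted p was 0.122. Zfp36l2 (ENSRNOG00000005067), known from blood stem cells and oocytes, had an FPKM of 2.61, 2.65, 3.97 and 7.03 at rest and 2.17, 2.60, 4.12 and 4.08 after running. The groups overlapped, and the log2 fold change was -0.23 (95% interval -0.93 to 0.48, limma adjusted p 0.734). Without NC replicate 4 it was 0.046.

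The summed FPKM of the family was 134 to 179 at rest and 310 to 392 after running. Zfp36l1 made up 64.7% to 66.4% of it at rest, and Zfp36 was the larger share in 3 of the 4 libraries after running. Per library, the log2 ratio of Zfp36 to Zfp36l1 was -1.04 ± 0.09 at rest and 0.61 ± 0.51 after running (SD, n = 4). The difference of 1.66 had an exact permutation p of 0.0286 and an adjusted p of 0.0571 over the 6 pairs. The ratio of Zfp36 to Zfp36l2 differed by 2.30 (exact p 0.0286, adjusted 0.0571), also with no overlap. The ratio of Zfp36l1 to Zfp36l2 differed by 0.65 (exact p 0.0857, adjusted 0.129), and its groups overlapped. No pair passed 0.05 after adjustment. With 70 assignments no exact p can be under 0.0286, and 3 pairs at that value cannot pass 0.05 over 6 pairs. The adjusted p therefore does not show that these ratios were alike in the groups.

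Zc3h12a (ENSRNOG00000009131) had an FPKM of 3.32, 2.48, 4.02 and 4.56 at rest and 10.3, 11.1, 8.72 and 9.20 after running. Every library after running was at least 1.91 times the highest control. Its log2 fold change was 1.36 (SE 0.18, limma adjusted p 0.00518). Its bases before the start site (chr5:142669986-142670235, - strand, GRCr8) held none of the 8 motifs.

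**Figure D3:**
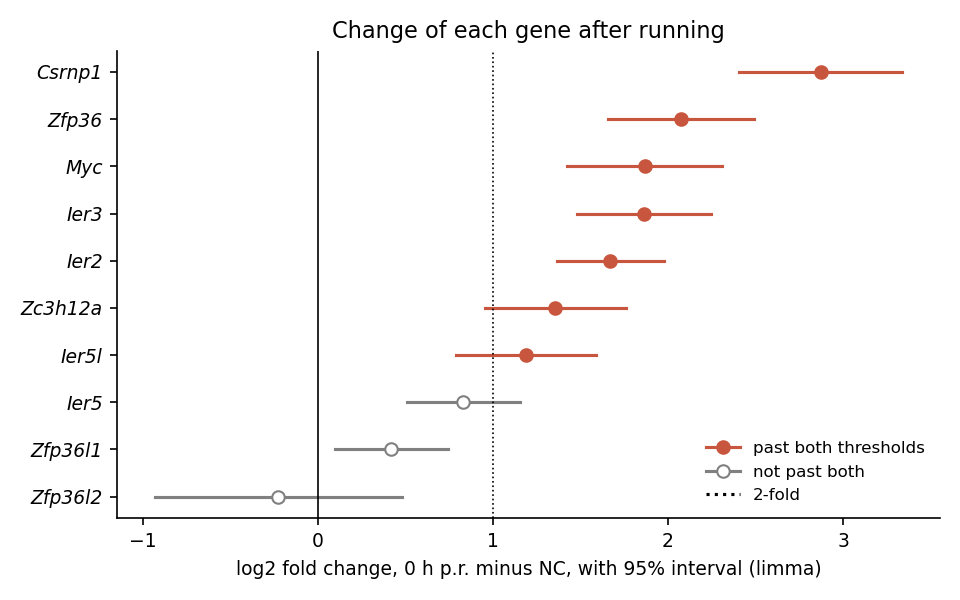
Log2 fold change of each of the 10 genes (0 h p.r. minus NC, horizontal axis) with its 95% limma interval, in descending order; filled points passed both thresholds and the dotted line marks a fold of 2. The changes run from -0.23 for Zfp36l2 to 2.87 for Csrnp1.

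The order of the levels differed between the groups. At rest Zfp36l1 was highest with a mean of 104 FPKM and lay apart from Zfp36 at 50.4. Zfp36 and Ier2 overlapped, as did Ier5 with Ier3, Myc with Ier5l, and the lowest genes Zfp36l2, Csrnp1 and Zc3h12a with each other. After running Zfp36 was highest with a mean of 217 FPKM and overlapped with Zfp36l1, which overlapped with Ier2 at 137. Ier3 followed apart from its neighbours, Myc overlapped with Ier5, and Csrnp1 overlapped with Ier5l. Zfp36l2 was the lowest at 3.24 FPKM and lay apart from Zc3h12a.

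The libraries after running did not rank alike across the genes. Replicate 2 was the highest of the 4 for Ier2, Myc, Zc3h12a and Zfp36. Replicate 4 was the lowest for Ier5, Myc and Zfp36 and the highest for Ier3. Replicate 3 was the lowest for Csrnp1, Ier2 and Zc3h12a. Among NC, replicate 4 was the highest for 6 of the 10 genes.

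The genes with the most similar pattern were found for Myc, Zfp36 and Ier3 by the root mean square difference of log2 values centred on their mean over the 8 libraries. The centring keeps the difference between the groups, so genes with a similar fold change come out near. This is a description, with no test. Myc and Zfp36 were nearest to each other, at 0.148. Next to Myc came Litaf, an endosomal protein gene, at 0.207 and the amino acid transporter gene Slc7a5 at 0.220. Next to Zfp36 came the AP-1 subunit gene Fosl2 at 0.198 and Slc7a5 at 0.209. Next to Ier3 came the heat shock co-chaperone gene Dnajb1 at 0.221, Btg2 at 0.260 and the GTP cyclohydrolase gene Gch1 at 0.293.

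The next genes examined were family relatives of the 10 genes and the network of Myc. Of 5 family relatives with a row, 4 were tested and none passed both thresholds in limma or in voom on recovered reads, and 1, which was lower, had an unadjusted p under 0.05. Among all tested genes, 11.4% were higher and 11.2% lower with such a p. Their median log2 fold change was -0.21. The largest change was that of Mycl, a relative of Myc, with 2.66 ± 1.36 FPKM at rest and 0.978 ± 0.302 after running (SD, n = 4). Its log2 fold change was -1.03, with a limma adjusted p of 0.0727. Of the 9 tested genes of the Myc network, which pair with Max or Mlx, none passed in limma or voom, and the median was 0.08. An unadjusted p under 0.05 was found for 2, with Mxd1 higher and Mxd4 lower. Max itself had 66.5 FPKM at rest and 61.1 after running. The largest change was that of Mxd4, an antagonist of Myc, at -0.53 (limma adjusted p 0.0665).

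None of 24 genes that Myc is known to activate passed both thresholds in limma or voom with all libraries. An unadjusted p under 0.05 was found for 10, of which 9 were higher and Ccnd1, a cyclin gene, was lower (-0.42), beside 11.4% and 11.2% of all tested genes. In 18 the change was positive, beside 6914 of the 13863 tested genes, and the median was 0.17. At any fold, 3 were higher with an adjusted p under 0.05, beside 3.49% of all tested genes. Gnl3, a nucleolar GTPase gene, had a log2 fold change of 0.90 (limma adjusted p 0.0122), the mitochondrial chaperone gene Hspd1 of 0.76 (0.0165) and the nucleolar gene Nolc1 of 0.57 (0.0322). In these 3 genes all libraries after running lay above all controls. When replicate 4 after running was left out, Gnl3 passed both thresholds (log2 fold change 1.02, limma adjusted p 0.00426), and it did so without replicates 1 and 4 as well (1.11, limma adjusted p 0.0120). The largest change of the list was that of Ldha, a glycolytic enzyme gene, at 0.93, with overlapping groups and a limma adjusted p of 0.0941. Odc1, the rate-limiting enzyme of polyamine synthesis, had 26.1 ± 3.77 FPKM at rest and 34.0 ± 4.06 after running (limma adjusted p 0.153).

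Of 18 genes of deadenylation, 1 passed both thresholds, beside 2.7% of all tested genes, and the median change was 0.12. An unadjusted p under 0.05 was found for 5, beside 11.4% of all tested genes higher and 11.2% lower. Of the 5, 4 were higher and Parn, a poly(A) ribonuclease gene, was lower (-0.48). The gene past both thresholds was Btg2, an antiproliferative gene whose product stimulates the CCR4-NOT complex. The study also lists Btg2 as differentially expressed in these samples, so it is not independent evidence. Its FPKM was 44.9, 42.4, 44.1 and 44.5 at rest and 178, 152, 137 and 177 after running. The controls were close together and the groups did not overlap. Btg2 rose by 1.85 on the log2 scale (SE 0.12, limma adjusted p 0.000210). Its relative Tob1 had a log2 fold change of 0.93 (limma adjusted p 0.0677), and Cnot1, the scaffold of CCR4-NOT, had 13.3 FPKM at rest and 14.4 after running.

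None of 24 tested genes of decapping and exonucleases passed in limma or voom, and the median was 0.02. With an unadjusted p under 0.05, Patl1 was higher and Edc3, another decapping gene, was lower (-0.58), beside 11.4% and 11.2% of all tested genes. The largest change was that of the decapping activator gene Patl1 at 0.76 (limma adjusted p 0.0520). None of 19 tested genes of other RNA-binding decay regulators passed in limma or voom with all libraries, and the median was 0.18. An unadjusted p under 0.05 was found for 4, all higher, against 11.4% of all tested genes. The largest change was that of Cpeb2, which regulates polyadenylation and translation, at 0.84 (limma adjusted p 0.0756). Without NC replicate 4, Cpeb2 passed both thresholds at 1.02 (limma adjusted p 0.0490). Elavl1, which encodes the mRNA-stabilising protein HuR, had a change of 0.33 (limma adjusted p 0.0998).

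Tristetraprolin is inactivated by phosphorylation through the p38 kinase and MK2. The list of its regulators holds kinases of this path as well as phosphatases, which act in the other direction. Of the 9 tested, 2 passed both thresholds, beside 2.7% of all tested genes, and the median was 0.45. An unadjusted p under 0.05 was found for 4, all higher, beside 11.4% of all tested genes. Dusp1, a phosphatase that switches off p38, had an FPKM of 101, 104, 119 and 153 at rest and 358, 399, 197 and 467 after running. Map2k3, a kinase that activates p38, had an FPKM of 11.2, 3.87, 8.64 and 6.14 at rest and 24.0, 22.4, 25.0 and 11.4 after running. The groups did not overlap in either gene. The study lists both as differentially expressed in these samples, so they are not independent evidence. The log2 fold change was 1.52 for Dusp1 (SE 0.27, limma adjusted p 0.0156) and 1.44 for Map2k3 (SE 0.34, limma adjusted p 0.0426). The adjusted p of Dusp1 was 0.0562 without NC replicate 1, 0.0597 when replicate 2 after running was left out, and 0.00515 to 0.0755 over 16 alternative fits. That of Map2k3 was over 0.05 in 8 of the 16, up to 0.123 without 0 h p.r. replicate 2. MK2 itself, encoded by Mapkapk2, had 60.4 FPKM at rest and 91.0 after running (limma adjusted p 0.118).

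Among 19 other genes whose mRNAs are known as targets of tristetraprolin or Regnase-1, 14 had a row and 11 were tested. Of these, 6 had an FPKM of at least 0.5 in every NC library, and 5 of the 6 were higher by both thresholds (1.8% of all tested genes), with a median log2 fold change of 2.09 over the 6. Il6 and Cxcl2 were under 0.5 FPKM in every NC library and Il1b and Ptgs2 in some, so that these 4 were tested only because of their level after running, and their values are a description. This list is not independent evidence, because the study names Il6, Il1b, Cxcl1, Cxcl2, Ccl2 and Ptgs2 from these samples. The chemokine genes Ccl2 and Cxcl1 had log2 fold changes of 3.33 and 3.31, and the cytokine gene Il1b had one of 2.64. Il6 had 0 to 5 reads per library at rest and 196 to 700 after running, so that its fitted change of 5.49 depends on the pseudocount. Cxcl2 was listed at 0 in 3 NC libraries and had 6 reads in the other, against 17 to 88 after running. The urokinase receptor gene Plaur, the NF-kB cofactor gene Nfkbiz and the NF-kB subunit gene Rel had changes of 2.17, 2.02 and 1.62. The limma adjusted p of Ccl2, Cxcl1, Plaur, Nfkbiz and Rel lay between 0.000886 and 0.00594. Cxcl2 passed both thresholds with all libraries, as a description only, but not without NC replicate 3 (log2 fold change 2.17). Nor did it pass when replicate 1 after running was left out (2.06), and it was not tested at a mean FPKM minimum of 2. Ptgs2, which encodes cyclooxygenase-2, had a change of 0.92 with overlapping groups, and one of 1.14 when replicate 1 after running was left out. Tnfrsf4 was the only tested gene of the list that was lower (-0.47), with 4 to 11 reads per library at rest and 1 to 10 after running. Its FPKM was 0.264 to 0.893 at rest and 0.0767 to 0.542 after running. It was tested mainly because of its level at rest, so its change is a description too. Vegfa had a change of 0.79 (limma adjusted p 0.0977). Macrophages and neutrophils can make such cytokines, and the part of these cells in the changes was not tested. The summed level of 7 macrophage markers was 165 to 281 FPKM at rest and 154 to 293 after running. That of the 4 of 7 neutrophil markers with a row was 1.44 to 4.67 at rest and 1.51 to 2.24 after running, and the ranges overlapped in both lists.

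**Figure D4:**
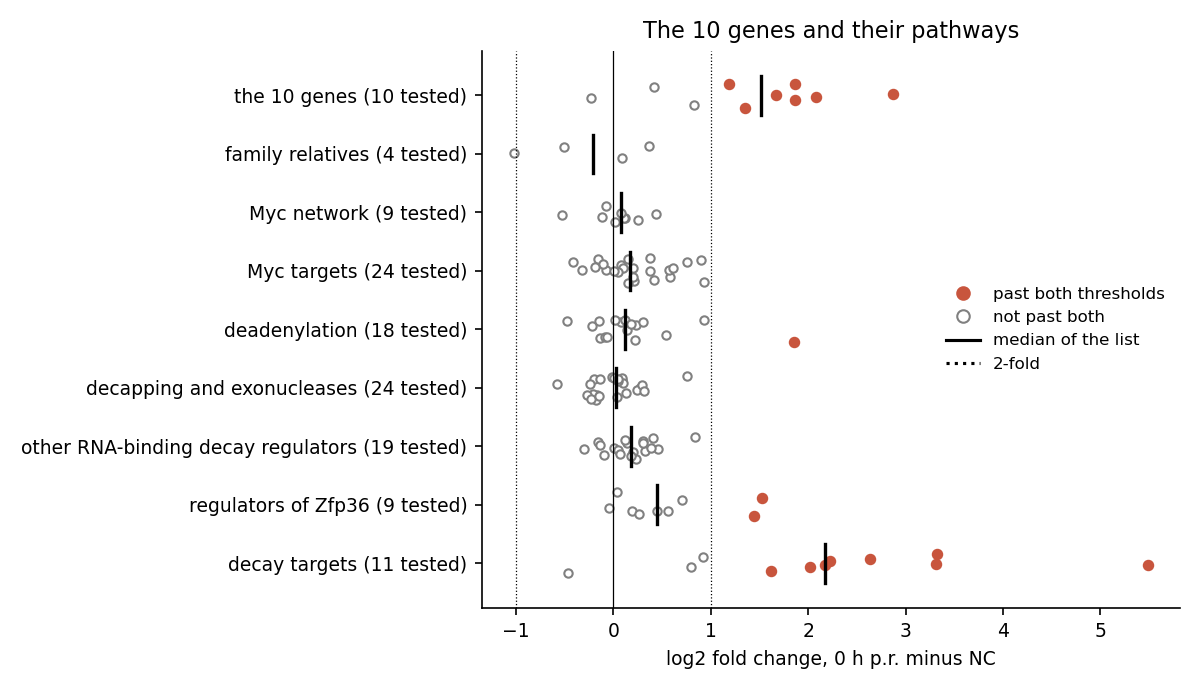
Log2 fold change (0 h p.r. minus NC, horizontal axis) of the tested genes of each list, 1 point a gene; filled points passed both thresholds, the black bars are list medians and the dotted lines mark a fold of 2. The 10 genes have a median of 1.51, the decay targets, some of them tested only because of their level after running, one of 2.17, and the medians of the other lists lie between -0.21 and 0.45.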

How the data were processed

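Polyadenylated RNA was sequenced with a stranded kit. Per the study's methods, the authors aligned reads to Rnor_6.0 with HISAT2 2.1.0, counted them per gene with featureCounts 1.6.3 and normalised with DESeq2 1.30.1. The deposited table holds FPKM values by the authors for each library, which may also have been scaled between libraries. The medians of the columns were close (6.20 to 6.71), which alone does not show such scaling. Its log2 fold changes and its p-values are the authors' own comparison of these groups and were not used. Groups and replicate numbers came from the sample titles.

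Whole reads were recovered from the FPKM steps and gene lengths for 15590 of 15590 genes, to within 0.0001 reads, and served as depth. The lowest chi-square per gene among 12 library pairs within groups was 28.1, so no pair was a near copy. A gene was tested if its FPKM reached 0.5 in 4 or more of the 8 libraries, on log2(FPKM + 0.5) with limma 3.58.1 in R 4.3.3 (eBayes with trend, no covariate, two-sided, Benjamini-Hochberg over all tested genes), and the fit was tested on simulated data. Fold changes on this scale understate the change of low genes. Paralogue ratios were compared by two-sided exact permutation in Python 3.11.15 with numpy 2.4.6. Motifs were counted in 250 bases before the start site. Positions belong to GRCr8, another build than that of the counts.

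The members and gene lists were chosen with earlier results of these data known. Named genes were the 10 members, each list gene past both thresholds or with the largest change, and the 3 genes nearest to Myc, Zfp36 and Ier3. The Myc target genes past the adjusted p alone, and Max, Odc1, Tob1, Cnot1, Elavl1, Mapkapk2, Ptgs2, Vegfa, Tnfrsf4, Mxd1, Ccnd1, Edc3 and Parn, were added after their values were seen. Alternatives were pseudocounts of 0.1 and 1, a mean FPKM minimum of 2 in place of the filter or no filter, quantile normalization, the replicate number as a block, voom on the recovered reads, each library left out and the adjusted p at any fold.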

Additional observations from a re-analysis of the deposited data

How the results depend on the processing

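The count of 7 of the 10 genes was the same in all 16 alternative fits, and 8 at any fold. Genes of the other lists past both thresholds numbered 11, beside 2.7% of all tested genes, and 9 to 12 with a library left out. Among the 11 are Il6, Cxcl2 and Il1b, which were tested only because of their level after running, so the count is a description. With 1 library left out, Gnl3 and Cpeb2 each passed in 1 of 8 fits. Ptgs2 did so as well, but it too was tested only because of its level after running, so this is a description. Over all genes the 374 calls became 793 at any fold and 415 with voom. They were 195 to 516 with a library left out, with 195 when replicate 2 after running was left out, 201 when replicate 3 was, and 217 without NC replicate 1. With the replicate number as a block there were 212, and the adjusted p of Ier5 was 0.0634 and that of Map2k3 0.0557. Deviations of same-numbered libraries correlated at -0.14 to 0.07 and others at -0.25 to 0.23, so the numbers were not taken as pairs. The change of Zfp36l2 was -0.38 to 0.046 with a library left out, and reversed only without NC replicate 4 (limma adjusted p 0.943, against 0.734 with all libraries).

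With a pseudocount of 1, the ratios Zfp36/Zfp36l1, Zfp36/Zfp36l2, Zfp36l1/Zfp36l2 and Ier2/Ier5 differed by 1.65, 2.27, 0.62 and 0.84, each with an adjusted exact permutation p of 0.0429. With a library left out, the differences ranged from 1.503 to 1.88, 2.06 to 2.58, 0.44 to 0.81 and 0.76 to 0.96 for these pairs, and from 0.31 to 0.70 for Ier2/Ier5l. Some of these passed 0.05 without NC replicate 1 or without 0 h p.r. replicate 3. The causes were not tested. Genes with few reads, such as Cxcl2, are limited by depth.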
